A study of Mus musculus with 10 samples.

Results

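The genes described here are 10 genes of MHC class II antigen presentation and costimulation, chosen by name from the 55487 genes counted: Cd74, H2-Aa, H2-Ab1, H2-Eb1, H2-DMa, H2-DMb1, H2-DMb2, H2-Oa, Ciita and Cd86. All 10 were found and all 10 passed the filter on low counts. Ciita had 0 reads in 1 library, and each of the other 9 genes had at least 897 reads in every library. RNA came from Cx3cr1GFP/+ mice, whose reporter allele makes microglia and other macrophages green, and viable green cells were sorted from the pooled retinas of each animal. Littermates labelled Control, whose own treatment the labels do not describe further, made up the first group (3 animals). Diabetes had been induced with streptozotocin (STZ), a toxin of pancreatic beta cells, 4 weeks earlier in the group 4wk STZ (3 animals) and 8 weeks earlier in the group 8wk STZ (4 animals). The question of each comparison is which transcripts of the sorted cells depart from Control early and later in diabetes. Every group carries the reporter allele and therefore only 1 intact copy of Cx3cr1. The labels name neither strain nor age nor a library batch, Control is a single set for both stages, and the gate takes every viable green cell, microglia or not.

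MHC class II molecules are pairs of an alpha and a beta chain that display peptides from engulfed proteins to CD4+ T cells. The invariant chain, made from Cd74, holds the groove shut and carries the pair to endosomes, where the DM proteins help to exchange the last fragment of the invariant chain for a peptide and the DO proteins restrain DM. The coactivator CIITA switches these genes on together through a shared promoter module, and CD86 is a surface ligand that gives T cells the second signal they need. Resting microglia are known for low class II, whereas macrophages at the borders of nervous tissue, dendritic cells and B cells can carry much of it.

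Libraries held 45656309 to 54312248 reads for Control, 33266838 to 49051036 for 4wk STZ and 46143178 to 62903489 for 8wk STZ. The 10 microglial markers, among them Csf1r, were present in every library and summed to between 31218 and 43734 CPM (read counts scaled to the library's total), so the labelled cell type was borne out by its markers. Of these 10 markers, 4 were lower and 1 was higher in 8wk STZ than in Control. Transcripts of rods were also present, and all 8 rod markers were called lower in 8wk STZ and 0 in 4wk STZ than in Control, summing to 7865 to 8867 CPM for Control, 3841 to 5353 CPM at 4 weeks and 2375 to 3233 CPM at 8 weeks. As these are bulk libraries, fewer cells of a type and less RNA per cell cannot be told apart.

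Cd74 and the 3 classical chains were the most uneven abundant transcripts between animals of a group, and they did not differ between the groups beyond that spread. They rose and fell together from one animal to the next, with 2.81- to 4.29-fold between the lowest and the highest Control animal, 2.61- to 4.38-fold in 4wk STZ and 3.91- to 4.58-fold in 8wk STZ, and 4.52- to 6.53-fold over all 10 libraries. H2-DMa, H2-DMb1, H2-Oa and Cd86 stayed within a range of 1.26- to 1.81-fold over all 10 libraries. Their log2 levels did not correlate detectably with that of Cd74 (r = -0.52, 0.37, 0.42 and -0.22). The adjusted permutation p was 0.291 or more over 16 relations with Cd74, and relations of this size are not settled by 10 libraries. No member was called, that is, passed an adjusted p of 0.05, at either stage of diabetes. An alternative fit left out Control 3 and 4wk STZ 3 together, for which the labels give no ground. Without both of them 1 member, H2-DMb2, was called at 8 weeks and 0 were called in the other comparisons.

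Cd74 codes for the invariant chain and lies on chromosome 18 (60803848 to 60812652, plus strand, GRCm38). It stood at 2661, 683 and 1721 CPM in Control 1 to 3, at 1025, 3313 and 1277 CPM in 4wk STZ 1 to 3, and at 3927, 1667, 857 and 2941 CPM in 8wk STZ 1 to 4. Each group held a high and a low animal, and the ranges of the groups overlapped. The mean was 1688 ± 989.6 CPM for Control (SD, n = 3), 1872 ± 1254 CPM at 4 weeks (n = 3) and 2348 ± 1358 CPM at 8 weeks (n = 4). Cd74 did not pass the test in 8wk STZ against Control (log2 fold change 0.48, SE 0.581, edgeR quasi-likelihood adjusted p = 0.801). The value was 0.96 without Control 1, 0.10 without Control 2 and 0.12 without 8wk STZ 1, and stayed uncalled with any 1 of the 7 libraries left out. The 95% interval of that change ran from 0.572-fold to 3.38-fold, so a moderate change in either direction was not detectable with these animals.

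H2-Aa codes for the alpha chain of the I-A molecule (chromosome 17, 34282744 to 34287823, minus strand). It was at 430.1, 100.3 and 244 CPM in Control 1 to 3, at 137, 593 and 238 CPM in 4wk STZ 1 to 3, and at 542, 268, 126 and 374 CPM in 8wk STZ 1 to 4. The same animals were high and low as for Cd74: 4wk STZ 2 and 8wk STZ 1 stood highest, and Control 2 and 8wk STZ 3 lowest. H2-Ab1, its partner beta chain (chromosome 17, 34257689 to 34269419, plus strand), was at 698, 248 and 514 CPM in Control, at 363, 949.8 and 451 CPM in 4wk STZ, and at 1122, 473, 287 and 845 CPM in 8wk STZ, with the libraries in the order of their numbers. H2-Eb1, the beta chain of the I-E molecule (chromosome 17, 34305867 to 34316674, plus strand), was at 284, 81.7 and 201 CPM in Control, at 108, 472 and 158 CPM in 4wk STZ, and at 533, 198, 121 and 324 CPM in 8wk STZ. In all 3 genes Control 2 was the lowest of the 10 libraries, and the groups overlapped. For H2-Aa, H2-Ab1 and H2-Eb1 the log2 fold changes were 0.34, 0.49 and 0.64 in 8wk STZ against Control (adjusted p = 0.882, 0.747 and 0.724) and 0.32, 0.27 and 0.38 in 4wk STZ against Control (adjusted p = 0.935, 0.932 and 0.921). With 1 library left out, the 8-week values ran from -0.042 to 0.92 for H2-Aa, 0.14 to 0.84 for H2-Ab1 and 0.19 to 1.05 for H2-Eb1, highest without Control 1 and lowest without Control 2 for H2-Aa and without 8wk STZ 1 for the others. H2-Ea, the alpha chain gene that would pair with H2-Eb1, had at most 0.0933 CPM in each library, and H2-Eb2, a second beta chain gene of the locus, at most 0.414 CPM. These genes differ between mouse strains, and reads of another haplotype may map poorly to the reference. As the strain is not named, the levels of H2-Ea, H2-Aa, H2-Ab1 and H2-Eb1, and their ratios and order against other genes, hold only as counted on GRCm38.

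**Figure D1:**
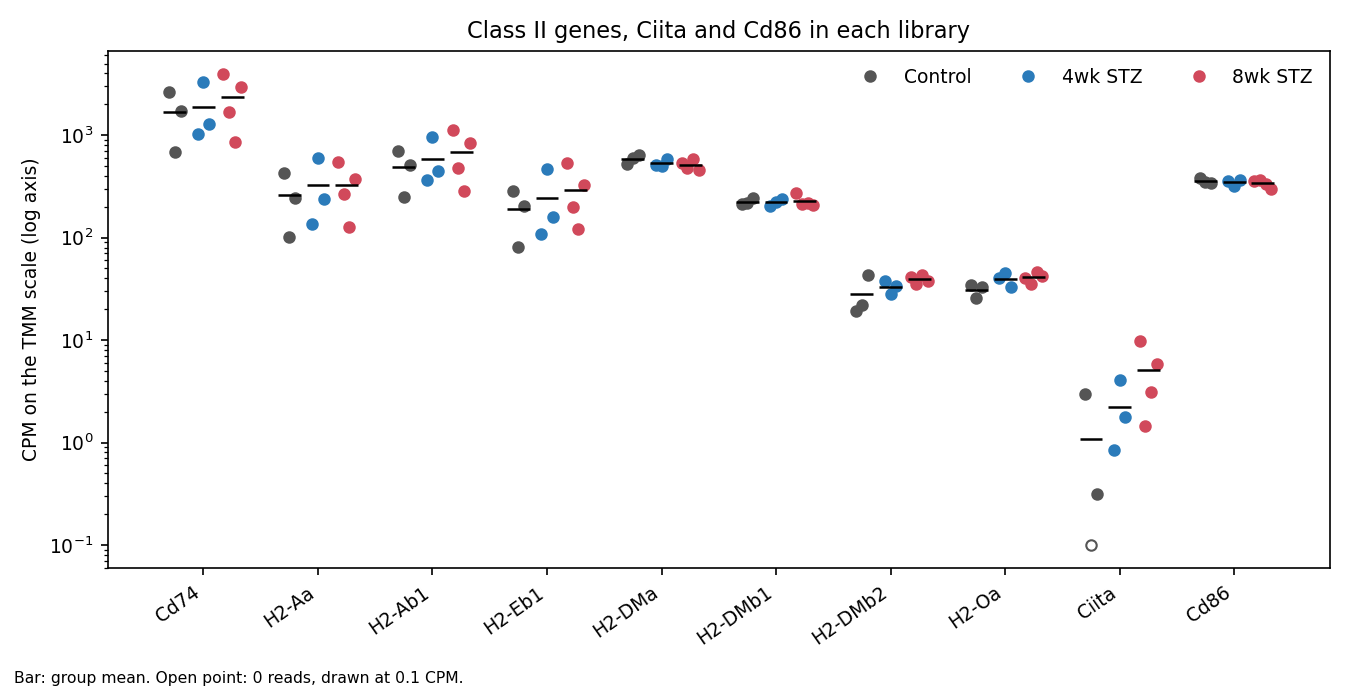
CPM on the TMM scale (log axis) for the 10 genes, with 1 point per library in Control (n = 3), 4wk STZ (n = 3) and 8wk STZ (n = 4), bars at the group means and an open point, drawn at 0.1 CPM, for the library with 0 reads of Ciita. Cd74 ranged from 683 to 3927 CPM with the groups overlapping, while H2-DMa ranged only from 452 to 645 CPM.

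The proportions of these transcripts were steady while their level was not. H2-Aa stood at 12.7 to 18.6% of Cd74 over the 10 libraries, H2-Ab1 at 26.2 to 36.3% and H2-Eb1 at 10.5 to 14.3%, each on the CPM scale. Together the 4 genes took 0.108% of reads in Control 2 and 0.614% in 8wk STZ 1, the lowest and the highest library. Their share averaged 0.254 ± 0.146% for Control (SD, n = 3), 0.297 ± 0.198% at 4 weeks (n = 3) and 0.377 ± 0.206% at 8 weeks (n = 4). Over the 10 libraries, which share their scaling, Cd74 correlated with H2-Aa at r = 0.98 (Spearman rho 0.96), with H2-Ab1 at r = 0.99 (rho 1) and with H2-Eb1 at r = 0.98 (rho 0.99) on the log2 scale (permutation p = 1e-05 for each r, the smallest that 100000 resamples can give, and 5.33e-05 adjusted over 16 relations with Cd74). The permutation p of rho was 6e-05 for H2-Aa and 1e-05 for the others (0.00032 and 8e-05 adjusted). Without Control 2 and 8wk STZ 1, the libraries farthest from the median of Cd74, r was 0.97, 0.99 and 0.97.

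**Figure D2:**
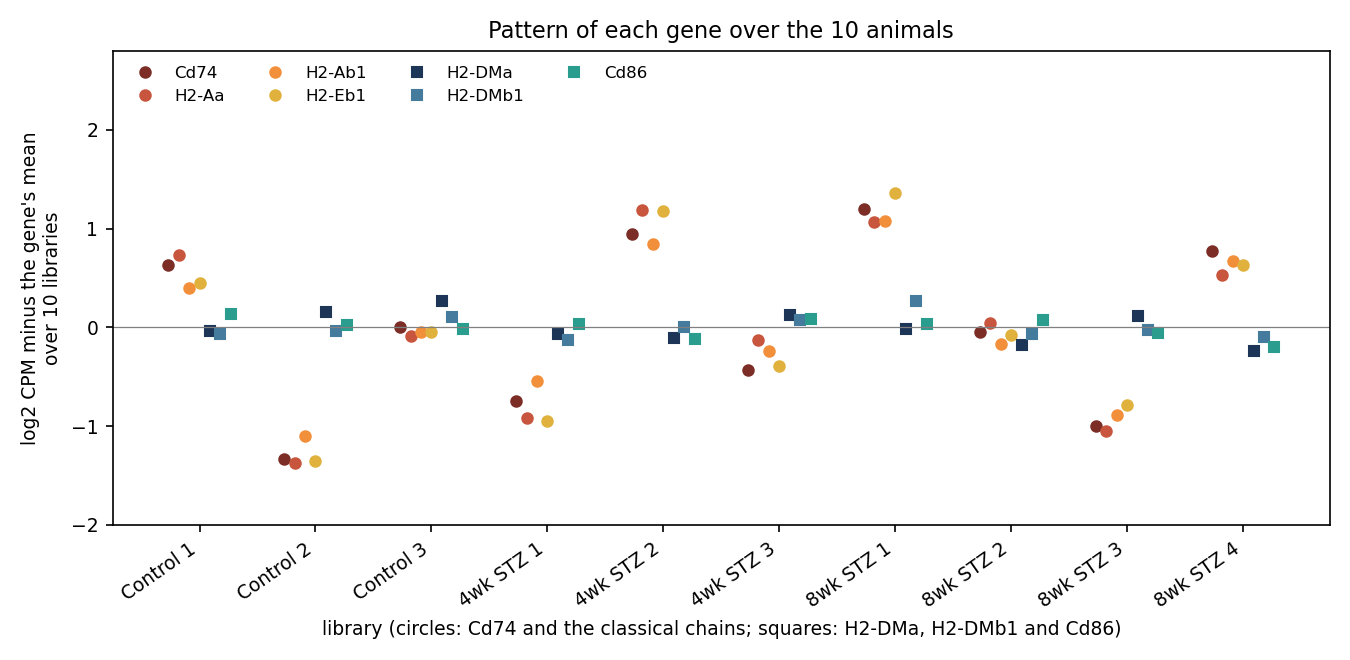
Difference of each gene's log2 CPM from its own mean over the 10 libraries, 1 column of points per library, with circles for Cd74, H2-Aa, H2-Ab1 and H2-Eb1 and squares for H2-DMa, H2-DMb1 and Cd86. The circles of a library lie close together and far from 0 in Control 2, 4wk STZ 2 and 8wk STZ 1, while the squares stay near 0 in every library.

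Set against all abundant genes, this spread stood apart. Among the 1604 tested genes whose mean log2 CPM corresponds to 100 CPM or more, the standard deviation of log2 CPM between animals of a group was largest for H2-Aa (1.00), H2-Eb1 (0.98), Cd74 (0.96) and H2-Ab1 (0.81), in that order. The median over those genes was 0.16. Apoe, an apolipoprotein, came next at 0.73. The large spread was present in each group: for Cd74 the standard deviation was 1.00 for Control, 0.90 at 4 weeks and 0.97 at 8 weeks. Among the same genes H2-DMa ranked 955, H2-DMb1 1129 and Cd86 1403, all at or below the median spread.

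**Figure D3:**
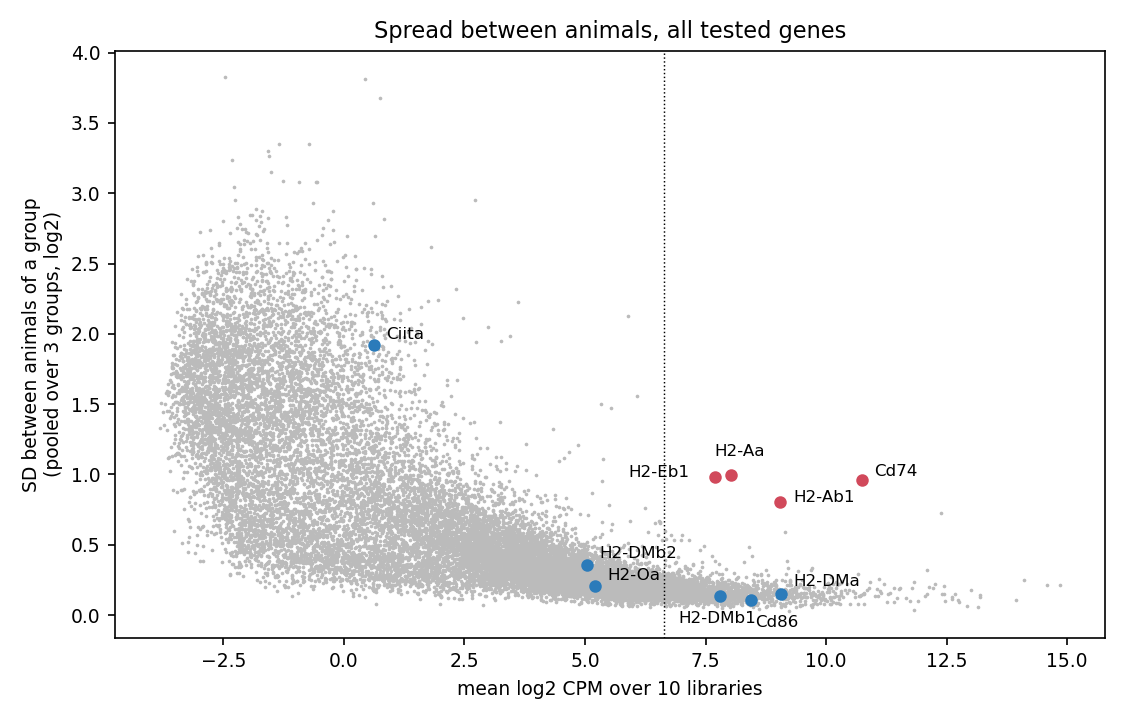
Standard deviation of log2 CPM between animals of a group, pooled over the 3 groups, against mean log2 CPM for all 18957 tested genes (grey), with the 10 members named and a dotted line at 100 CPM. Cd74, H2-Aa, H2-Ab1 and H2-Eb1 lie at 0.81 to 1.00, above every other gene to the right of the line.

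Class II promoters share an X box and a Y box ahead of the start site, which the RFX and NF-Y complexes bind and on which CIITA assembles. RefSeq promoters (GRCm38.p6, from 250 bases before to 50 after a start) were searched for 6 of the 10 members. Cd74 was left out of this search, and H2-Ab1, Ciita and Cd86 had no entry. The stretches that end just after the Y box are shown for 5 of the 6. These were taken because all 5 hold the Y box and yet differed in how they varied between animals. Capitals mark matches to the X box core AACNGATG, to the Y box TGATTGG and to TGACGTCA, the cAMP response element, which were chosen with these promoters in view and searched on both strands.
H2-Aa: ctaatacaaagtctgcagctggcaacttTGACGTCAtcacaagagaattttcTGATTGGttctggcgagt
H2-Eb1: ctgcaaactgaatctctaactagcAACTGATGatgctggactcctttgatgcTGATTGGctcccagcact
H2-DMb1: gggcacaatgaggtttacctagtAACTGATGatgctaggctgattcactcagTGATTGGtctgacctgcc
H2-DMb2: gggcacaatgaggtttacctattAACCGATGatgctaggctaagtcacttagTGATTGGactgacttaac
H2-Oa: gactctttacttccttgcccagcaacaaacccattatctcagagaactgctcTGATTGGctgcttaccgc

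These 70-base stretches lie at chr17:34287856-34287925 on the minus strand for H2-Aa and, on the plus strand, at chr17:34305754-34305823 for H2-Eb1, chr17:34153076-34153145 for H2-DMb1, chr17:34145105-34145174 for H2-DMb2 and chr17:34092282-34092351 for H2-Oa. The Y box began 50, 61, 63, 92 and 45 bases before the start site of H2-Aa, H2-Eb1, H2-DMb1, H2-DMb2 and H2-Oa. These are RefSeq start sites, and for H2-DMb1, H2-DMb2 and H2-Oa they lie inside the gene spans given below. The stretches of H2-DMb1 and H2-DMb2 thus lie within those spans, which begin at 34153072 and 34143307. Of 32851 promoter windows of this length, 7.82% held TGATTGG, 2.32% AACNGATG, 1.79% TGACGTCA and 0.186% both of the first pair. H2-Eb1 and both DM beta genes were in that last group. H2-Eb1 carried the X core 28 bases ahead of the Y box and varied 6.53-fold over the libraries. H2-DMb1 carried the same 8 letters 29 bases ahead and varied 1.31-fold. As the stretches were picked for differing in spread, this contrast was fixed by the choice, and the part of these motifs in the spread was not tested. Neither of the H2-DMa windows held a match to any of the 3 motifs, and those of H2-Aa and H2-Oa held none to the X box core. A missing match says only that these exact letters are not in that window, not that the gene lacks the box.

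Ciita, the class II transactivator (chromosome 16, 10480059 to 10528418, plus strand), was the scarcest member. It had 136, 0 and 16 reads in Control 1 to 3, 41, 197 and 57 in 4wk STZ 1 to 3, and 619, 72, 157 and 345 in 8wk STZ 1 to 4. In the same order this was 2.94, 0 and 0.311 CPM for Control, 0.851, 4.08 and 1.77 CPM at 4 weeks, and 9.82, 1.44, 3.12 and 5.79 CPM at 8 weeks. Control 1 lay above 8wk STZ 2, so the groups overlapped, and the count of 0 in Control 2 allows a level of up to 0.0675 CPM (3 reads, counting error only). Ciita averaged 1.08 ± 1.62 CPM for Control (SD, n = 3), 2.24 ± 1.66 CPM at 4 weeks (n = 3) and 5.04 ± 3.65 CPM at 8 weeks (n = 4). The log2 fold change of 2.22 in 8wk STZ against Control did not pass (SE 1.26, adjusted p = 0.456), with an interval from 0.681-fold to 31.7-fold. It was 4.96 without Control 1 (adjusted p = 0.121) and 1.64 to 2.53 with any other of the 7 libraries left out. Ciita correlated with Cd74 at r = 0.72 (rho 0.72, permutation p = 0.0107 and 0.0233, adjusted 0.0342 and 0.0746) and at r = 0.80 on deviations from the group means. Without Control 2 and 8wk STZ 1 it was at r = 0.43 (n = 8). Leaving out these extremes of Cd74 also narrows its range, so how far the relation rests on them is not settled. Dexi, on the opposite strand, covers 3.45% of the exonic sequence of Ciita and had 77 reads in Control 2, where Ciita had none.

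H2-DMa codes for the alpha chain of the peptide-exchange protein DM (chromosome 17, 34119541 to 34139101, plus strand). It was at 520.5, 596 and 645 CPM in Control 1 to 3, at 512, 496 and 583 CPM in 4wk STZ 1 to 3, and at 530.4, 475, 579.5 and 452 CPM in 8wk STZ 1 to 4. The groups overlapped within 1.43-fold over all libraries, and the log2 fold change of -0.21 in 8wk STZ against Control did not pass (SE 0.11, adjusted p = 0.423). Brd2, a chromatin reader on the opposite strand that covers 10.4% of its exonic sequence, stood at 92.3 ± 17.2 CPM in Control and 153 ± 5.56 CPM in 8wk STZ, and the part of shared reads was not tested. H2-DMb1, the main DM beta chain (chromosome 17, 34153072 to 34160230, plus strand), was at 214, 218 and 241 CPM in Control, 205, 224 and 236 CPM in 4wk STZ, and 269.8, 213, 219 and 209 CPM in 8wk STZ. Its log2 fold changes were -0.02 at 4 weeks and 0.02 at 8 weeks (adjusted p = 0.982 and 0.964), and the 8-week interval ran from 0.864-fold to 1.19-fold.

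H2-DMb2, the second DM beta gene (chromosome 17, 34143307 to 34151555, plus strand), differed from H2-DMb1 in that 1 library decided its call. It was at 19.4, 22.0 and 42.7 CPM in Control 1 to 3, at 37.9, 27.8 and 33.5 CPM in 4wk STZ 1 to 3, and at 41.5, 35.01, 43.0 and 37.7 CPM in 8wk STZ 1 to 4. Control 3 lay among the 8wk STZ libraries and the other controls below all diabetic ones. The log2 fold change of 0.49 in 8wk STZ against Control did not pass (SE 0.25, adjusted p = 0.4), whereas without Control 3 it was 0.92 and passed (adjusted p = 0.0397). The adjusted p with each of the other libraries left out ran up to 0.673. The main transcripts of H2-DMb1 and H2-DMb2 are identical at 94.7% of 1246 aligned bases, and the sources used here do not say how reads that fit both were counted, so the split between them is uncertain.

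H2-Oa, the alpha chain of the DM inhibitor DO (chromosome 17, 34092340 to 34095234, plus strand), had the smallest p of the 10. It was at 34.2, 25.5 and 32.9 CPM in Control 1 to 3, at 40.7, 45.0 and 33.1 CPM in 4wk STZ 1 to 3, and at 40.3, 34.9, 46.2 and 42.1 CPM in 8wk STZ 1 to 4. The lowest 8wk STZ library stood just above the highest Control library. Its mean was 30.9 ± 4.68 CPM in Control and 40.9 ± 4.66 CPM in 8wk STZ (log2 fold change 0.40, SE 0.16, unadjusted p = 0.0286, adjusted p = 0.246), which did not pass. BC051537, an antisense gene that covers 22.8% of its exonic sequence, had 36 reads or fewer in each library. H2-Ob, the DO beta chain, was at 118 ± 9.58, 141 ± 13.6 and 118 ± 11.03 CPM from Control to 8wk STZ and was not called.

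Cd86, the costimulatory ligand of CD28 and CTLA-4 (chromosome 16, 36603869 to 36666081, minus strand), was the steadiest member. It was at 381, 352 and 341 CPM in Control 1 to 3, at 354, 319.5 and 366 CPM in 4wk STZ 1 to 3, and at 354, 364, 333 and 301 CPM in 8wk STZ 1 to 4. The groups overlapped, and the log2 fold changes were -0.05 at 4 weeks and -0.08 at 8 weeks (SE 0.0965 and 0.0901, adjusted p = 0.938 and 0.774). The intervals ran from 0.835- to 1.12-fold and from 0.823- to 1.08-fold, far narrower than those of Cd74. Cd86 did not correlate detectably with Cd74 (r = -0.22, rho -0.09, permutation p = 0.537 and 0.811).

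Counted over the 10 members, 0 were called in 4wk STZ against Control, in 8wk STZ against Control and in 8wk STZ against 4wk STZ (edgeR quasi-likelihood test, adjusted p below 0.05). Of all 18957 tested genes 0% were called in the first comparison, 2.37% in the second and 0.918% in the last. These are 0, 449 and 174 genes, and any 1 library left out gave 0 to 1, 206 to 255 and 13 to 118. At an unadjusted p below 0.05 the members numbered 0, 1 and 0, against 9.75%, 15.7% and 13.7% of all genes. DESeq2, the edgeR likelihood ratio test and limma-voom also called 0 members in each comparison. H2-Oa in 8wk STZ against Control was the only member whose groups did not overlap, so that these members numbered 0, 1 and 0 of 10 beside 12.3%, 16.9% and 15.4% of all genes in the 3 comparisons. The median log2 fold change of the members was 0.26 at 4 weeks, 0.44 at 8 weeks and 0.13 between the stages, beside -0.0039, -0.0061 and -0.00045 for all genes. Of the members, 7, 8 and 8 lay above 0. Cd74 and the 3 classical chains moved together between animals (pairwise r = 0.97 to 0.99), so their directions do not count as separate observations. The comparisons at 4 and 8 weeks share their 3 control animals. In the authors' deposited table the members' log2 fold changes ran from -0.14 to 1.05 at 4 weeks and from -0.21 to 2.21 at 8 weeks. The lowest FDR of a member there was 0.561 and 0.212. Of the 14475 genes in it, 116 at 4 weeks and 1055 at 8 weeks had an FDR below 0.05.

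**Figure D4:**
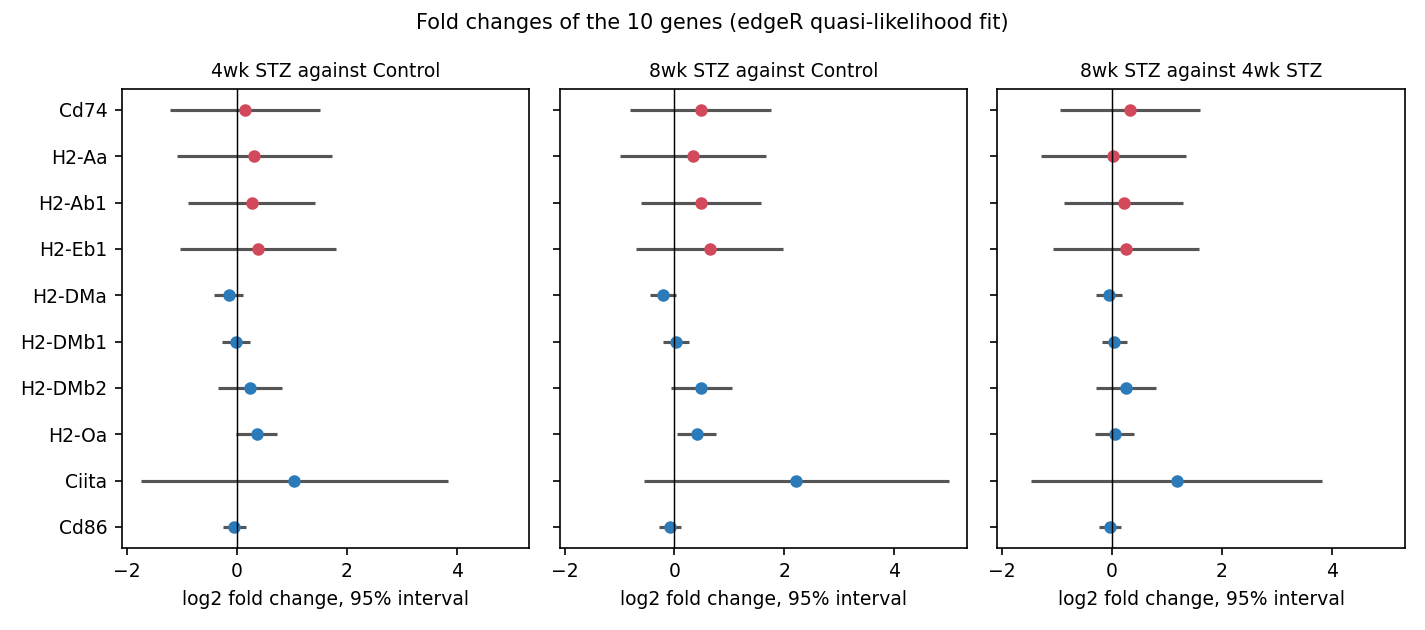
Log2 fold changes of the 10 members (points) with 95% intervals (lines) from the edgeR quasi-likelihood fit, in 3 comparisons on the same axis. Intervals are wide for Ciita, Cd74, H2-Aa, H2-Ab1 and H2-Eb1, narrow for H2-DMa, H2-DMb1 and Cd86, and only that of H2-Oa at 8 weeks lies clear of 0.

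Levels between genes can be compared per length, as RPKM (reads scaled to library total and gene length) over the merged exons of GENCODE vM21. By the median over the 10 libraries the order was Cd74 (1009 RPKM), H2-Ab1 (192), H2-DMa (152), H2-DMb1 (130.1), H2-Eb1 (103), Cd86 (96.4), H2-Aa (67.4), H2-Oa (26.7), H2-DMb2 (20.8) and Ciita (0.247). Cd74 ran from 407 to 2339 RPKM and H2-Ab1 from 96.6 to 437 RPKM. From H2-Ab1 to H2-Aa the ranges of neighbours in this order overlapped, so ranges over the animals do not fix the order of each neighbouring pair. H2-Oa (18.2 to 32.8) overlapped both H2-Aa (26.4 to 156) and H2-DMb2 (11.1 to 24.6). The lowest values of H2-DMa (131) and H2-DMb1 (122) lay above the highest of Cd86 (104). Compared within each library, H2-Ab1 stood above H2-Eb1, H2-Eb1 above H2-Aa, and H2-Aa above H2-Oa. The merged exons of H2-Aa span 3798 bases against 1128 in its main transcript, which lowers its value on this scale. For H2-DMa these lengths were 3448 and 1108, for H2-Ab1 2568 and 1212, and for H2-DMb1 1681 and 1404. The values of H2-Aa, H2-DMa and H2-Ab1 are thus lowered more than that of H2-DMb1, and the order also depends on the length taken.

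Cd74 moved between animals with the summed markers of border macrophages, which can express Cx3cr1 and so enter the gate. The 10 border macrophage markers summed to 369.9 to 679 CPM in Control, 303 to 602 CPM at 4 weeks and 219.8 to 926 CPM at 8 weeks, and none was called in any comparison. Over the 10 libraries log2 Cd74 correlated with the log2 sum at r = 0.85 and rho 0.85 (permutation p = 0.00275 and 0.00269, adjusted 0.011 and 0.0108 over 16 relations), at r = 0.91 without Control 2 and 8wk STZ 1, and at r = 0.90 on deviations from the group means. Mrc1, the mannose receptor, was at 105, 17.7 and 95.2 CPM in Control 1 to 3, at 34.6, 75.8 and 29.0 CPM in 4wk STZ 1 to 3, and at 86.9, 49.0, 6.90 and 112 CPM in 8wk STZ 1 to 4. Its lowest libraries, 8wk STZ 3 and Control 2, were also the lowest for Cd74, in the opposite order. In 8wk STZ 3 Cd163 had no read, which allows up to 0.0597 CPM, and Lyve1, Pf4 and F13a1 stood at 0.318, 5.17 and 2.51 CPM, while Cd74 was at 857 CPM and H2-Aa at 126 CPM. Stab1 and Ms4a7 were still at 149 and 46.9 CPM in that library. The part of border macrophages in the spread of Cd74 was not tested.

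**Figure D5:**
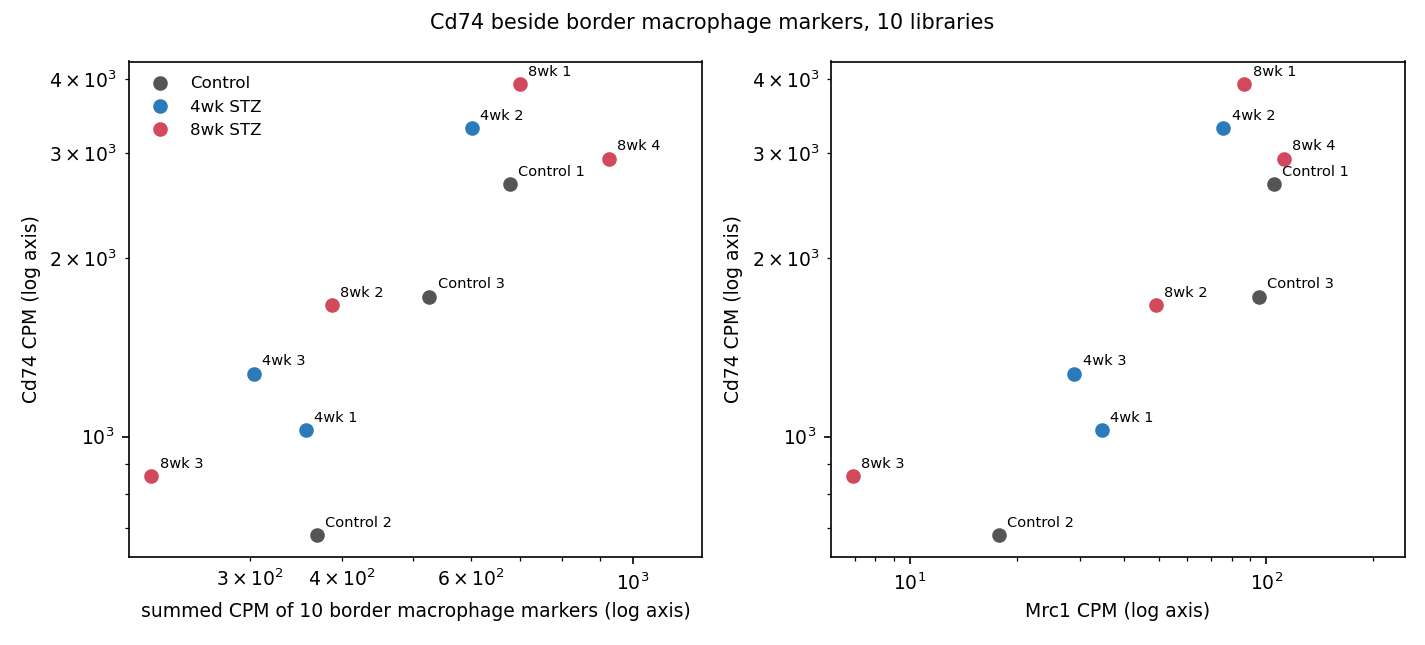
Cd74 in CPM against the summed CPM of 10 border macrophage markers (left) and against Mrc1 (right), both axes logarithmic, 1 point per library coloured by group. The points rise together, from 683 and 857 CPM of Cd74 in Control 2 and 8wk STZ 3 to 3313 and 3927 CPM in 4wk STZ 2 and 8wk STZ 1, while Cd74 kept 857 CPM where Mrc1 was at 6.90 CPM.

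The other cells that could bring class II were low by part of their markers. Those under 5 CPM in every library were 6 of 12 for dendritic cells, 6 of 8 for B cells, 5 of 8 for monocytes and 6 of 7 for T cells. Of the 12 dendritic cell markers, Flt3, Xcr1 and Clec9a reached at most 1.78, 2.18 and 1.44 CPM. Apart from Batf3, the rest of that list is given here only within its sum and its median change. The list summed to 43.1 to 79.1, 63.01 to 82.1 and 57.1 to 79.2 CPM in the 3 groups, mostly from Itgax and Batf3, which microglia can express too. Batf3, a transcription factor, rose from 15.5 ± 2.38 CPM in Control to 27.5 ± 2.61 CPM in 8wk STZ (adjusted p = 0.0461) and lost this call with any 1 of the 7 libraries left out (adjusted p = 0.0615 to 0.143). Among the 8 B cell markers, Pax5 and Ms4a1 were at or under 0.597 CPM in every library, while Ighm, the immunoglobulin mu chain, was at 719 to 968 CPM and Cd79b at 30.3 to 58.0 CPM. Monocyte markers (8) summed to 5.89 to 20.3 CPM and T cell markers (7) to 0.677 to 15.4 CPM over the 10 libraries. Median log2 fold changes against Control at 4 and 8 weeks were 0.47 and 0.66 for the 10 tested dendritic cell markers. They were 0.15 and 0.77 for B cells (5 tested), -0.45 and -0.38 for monocytes (5 tested) and 0.33 and -1.49 for T cells (3 tested). Batf3 was the only call in these lists. Cd74 did not correlate detectably with the sums for dendritic cells (r = 0.33, rho 0.35), monocytes (-0.16, -0.27), B cells (0.27, 0.22), T cells (0.55, 0.24), rods (-0.30, -0.30) or microglia (-0.24, -0.22), with adjusted permutation p-values of 0.242 or more for every r and 0.616 for every rho.

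The genes most like the shared pattern of Cd74 and the classical chains were ranked by their Pearson correlation with the averaged log2 CPM of Cd74, H2-Aa, H2-Ab1 and H2-Eb1 over the 10 libraries, which share their scaling. The ranking took in 10165 other genes whose log2 CPM averaged 2 or more. The 8 highest were Cp, which codes for ceruloplasmin, a copper-carrying ferroxidase (r = 0.92), Wwp1, a ubiquitin ligase (0.90), Lilra5, a leukocyte immunoglobulin-like receptor (0.90), Rcsd1 (0.90), Aoah, an enzyme that inactivates lipopolysaccharide (0.87), Gas7 (0.87), Slc26a11 (0.86) and Mat2b (0.86). These are the ends of a long ranking over few libraries and carry no test. Cp was at 34.2, 18.3 and 38.8 CPM in Control 1 to 3, at 26.2, 39.3 and 31.3 CPM in 4wk STZ 1 to 3, and at 44.1, 31.6, 22.4 and 38.8 CPM in 8wk STZ 1 to 4. It was lowest in Control 2 and 8wk STZ 3, like Cd74, over a smaller range. Of the 10 border markers, 8 were abundant enough to be ranked, and they spread widely over the order: Pf4 stood at rank 13 (r = 0.83), Mrc1 at 15 (0.81), F13a1 at 41 (0.77), Lyve1 at 205 (0.64), Cd163 at 323 (0.57), Ms4a7 at 635 (0.49), Stab1 at 1610 (0.33) and Clec12a at 4156 (0.09). Stab1, among the most abundant of the list, thus followed the pattern weakly.

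Among the regulators that act on class II genes, none of 17 was called in any comparison. They include the RFX and NF-Y subunits, the interferon gamma receptor and its kinases. Ifngr1, a chain of the interferon gamma receptor, and Irf8, a transcription factor of myeloid cells, were the most abundant, at 1317 ± 156, 1261 ± 105 and 1168 ± 88.4 CPM and at 834 ± 86.7, 873 ± 37.9 and 947 ± 60.6 CPM. Of 12 genes of antigen processing and class II turnover, 1 was called, lower in 8wk STZ than in Control. This was Ctsl, cathepsin L, which stood at 947 ± 50.9 CPM in Control and 749 ± 25.01 CPM in 8wk STZ (adjusted p = 0.0345, log2 fold change -0.34), a call lost with any 1 of the 7 libraries left out (adjusted p = 0.0503 to 0.124). Ctss, cathepsin S, which cuts the invariant chain, was at 15216, 16375 and 15514 CPM on average in the 3 groups and was not called, nor was Ctsd.

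Among ligands of costimulation and coinhibition, 1 of 14 tested genes was called. Icosl, the ligand of the costimulatory receptor ICOS, rose to 229 ± 22.0 CPM in 8wk STZ from 157 ± 10.2 CPM in Control (log2 fold change 0.55, adjusted p = 0.0182) and stood at 162 ± 11.2 CPM in 4wk STZ (8wk STZ against 4wk STZ, adjusted p = 0.0444). It was at 145, 165 and 161 CPM in Control 1 to 3, at 173, 150.4 and 163 CPM in 4wk STZ 1 to 3, and at 220.5, 262, 213 and 222 CPM in 8wk STZ 1 to 4. All 8wk STZ libraries lay above all others. The call against Control was lost without Control 1, 2 or 3 (adjusted p up to 0.0675), and that against 4wk STZ with any 1 of its 7 libraries left out (adjusted p = 0.0706 to 0.146). Cd80, the other ligand of CD28, was at 14.7 ± 3.22, 16.1 ± 4.53 and 14.2 ± 1.48 CPM. Cd40 was at 5.97 CPM or less in every library, and the most abundant members of the list, Vsir and Lgals9, were not called. Of 8 tested neighbours in the class II locus, 1 was called, Brd2, which was higher in 8wk STZ than in Control (log2 fold change 0.73, adjusted p = 0.0173, lost without Control 1, Control 2 or 8wk STZ 3, up to 0.0689) and than in 4wk STZ (0.70, adjusted p = 0.0366, lost with any 1 of 7 libraries left out). The class I gene H2-K1 and the immunoproteasome gene Psmb8 were the most abundant of these neighbours and were not called.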

How the data were processed

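Per the file headers, 1 deposited table gives whole-number read counts for every gene. The tools in the submitters' processing notes are STAR, Subread, featureCounts, Salmon, edgeR and limma, with the build GRCm38, but not which of them made the table, how strand was set or how multi-mapping reads were treated. The other deposited table gives the authors' log2 fold changes, log2 CPM, likelihood ratio scores, p-values and FDR, per the file headers. Of its 55774 entries, the first table repeats 287 with identical counts, which were dropped. A column with the number of transcripts, 1 in all, was left unused.

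TMM factors were computed, low genes removed by filterByExpr with the groups (18957 genes left) and a model with a mean for each group fitted to the 10 libraries in edgeR 4.0.16 (R 4.3.3), with robust quasi-likelihood F-tests and Benjamini-Hochberg adjustment over all tested genes. An adjusted p under 0.05 is a call. The SE is the log2 fold change divided by the root of F, and 95% intervals use the fit's degrees of freedom. CPM include the TMM factors, and log2 CPM has a prior count of 2. The procedure was also run on simulated counts with the same relative spread between libraries for every gene. That run does not speak for genes as variable as Cd74 and the classical chains. Reads carry no molecular identifiers, so the floor of 3 reads covers counting error only.

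The members and lists were chosen with earlier results of these data known, and the relations with Cd74, the ranking by spread and the motifs after values were seen. Relations were tested two-sided by permutation. Beyond the members, named genes are those called in a list, the most abundant of a list, defining markers, and the 8 most like the class II pattern. Library pairs within a group differed by far more than sampling noise (chi-square over degrees of freedom at least 48.2). Same-numbered libraries of different groups did not deviate together (9 pairs, r = -0.03 to 0.03), so replicate numbers served as names only. Alternatives were other scaling factors, no filter, DESeq2 1.42.0, the edgeR likelihood ratio test, limma-voom (limma 3.58.1), fits to fewer groups or libraries, and a replicate block. March1 and March8 were found under their names Marchf1 and Marchf8, and H2-Ea-ps and Cd58 were not matched.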

Additional observations from a re-analysis of the deposited data

Results flagged for a closer look

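Among the 10 members, H2-DMb1 had 1 library that only just passed a rule for outlying values in groups of 4. There 8wk STZ 1 was at 269.8 CPM, while 8wk STZ 2 to 4 stood at 213, 219 and 209 CPM. Groups of 3 were not examined in this way, and chance alone marks about 1 in 20 groups of 4, with 10 members examined. The same library was the highest of the 10 for Cd74, H2-Ab1, H2-Eb1 and Ciita.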

How the results depend on the processing

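Of 500 log2 fold changes of members under the alternatives, 451 kept their direction and their side of the threshold, 47 changed direction without passing, and 2 passed. The members called numbered 0 in 48 of 50 alternative counts. The count was 1 in 8wk STZ against Control, for H2-DMb2, without Control 3 (log2 fold change 0.92, adjusted p = 0.0397) and without Control 3 and 4wk STZ 3 together (0.92, adjusted p = 0.0462), so leaving out 1 library gave counts of 0 to 1.

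Changes of direction were these, as log2 fold changes, and the cause was not tested. With library totals only they were H2-DMb1 0.00042 at 4 weeks, Cd86 0.022 at 8 weeks, and H2-DMa 0.028 and Cd86 0.053 between the stages. With upper-quartile factors they were H2-DMb1 -0.023 at 8 weeks, and H2-Aa -0.039, H2-DMb1 -0.021 and H2-Oa -0.019 between the stages. Without Control 3 and 4wk STZ 3 together they were H2-Aa -0.16, H2-DMa 0.015, H2-Oa -0.069 and Cd86 0.0060 between the stages. With the replicate block they were Cd74 -0.041, H2-Aa -0.27, H2-Ab1 -0.11, H2-Eb1 -0.0045 and Cd86 0.017 between the stages. The replicate block called 0 members in each comparison, and among all genes 0, 44 and 0; the calls of Ctsl, Brd2, Icosl and Batf3 did not pass under it (adjusted p = 0.076 to 0.22).

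With 1 library left out, the values that changed direction ranged at 4 weeks over Cd74 -0.55 to 0.63, Cd86 -0.088 to 0.0076, H2-Aa -0.46 to 0.90, H2-Ab1 -0.26 to 0.62, H2-DMb1 -0.065 to 0.037, H2-Eb1 -0.51 to 0.79. At 8 weeks they ranged over H2-Aa -0.042 to 0.92, H2-DMb1 -0.065 to 0.080. Between the stages they ranged over Cd74 -0.032 to 1.03, Cd86 -0.089 to 0.018, H2-Aa -0.34 to 0.81, H2-Ab1 -0.13 to 0.75, H2-DMa -0.13 to 0.016, H2-DMb1 -0.047 to 0.088, H2-Eb1 -0.20 to 1.14, H2-Oa -0.069 to 0.15.

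Among all genes, DESeq2 called 314, 1451 and 1004 in the 3 comparisons, the likelihood ratio test 243, 1151 and 749, and limma-voom 0, 605 and 209, beside 0, 449 and 174. Cd74 had at least 30347 reads in each library, so its wide intervals go with spread between animals, while Ciita had 16 reads or fewer in 2 Control libraries.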

Other observations

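Beside the class II genes, the abundant transcripts that varied most between animals of a group were Apoe, Clu (clusterin), the lysozyme Lyz2 and the interferon-induced genes Ifit3 and Irf7, with standard deviations of 0.73, 0.60, 0.59, 0.57 and 0.57 on the log2 scale. Eif3f, a subunit of a translation initiation factor, followed at 0.54. These were taken by rank after the values were seen and carry no test.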
